A study of Mus musculus with 6 samples.

Results

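The genes described here are 9 cadherins that mark different kinds of cell: Cdh15, Cdh2, Cdh3, Cdh1 and Cdh4 of type I, Cdh11, Cdh5 and Cdh6 of type II, and Cdh13. They were chosen by name, with earlier results of these data known. All 9 were found among the 18951 gene identifiers of the deposited count table. The question the libraries address is how the RNA of heart muscle cells in primary culture changes after silencing of Rbm22, which encodes an RNA-binding protein of the splicing machinery. By the labels, cells came from hearts of C57BL/6J mice at postnatal day 1 and were collected 48 h after transfection. They had to exceed a purity of 97.5% when stained for cardiac troponin T. The 3 si-Rbm22 libraries received siRNA against Rbm22, and the 3 si-Control-labelled libraries received scramble siRNA. As labelled, both groups share the strain, the age, the isolation and the transfection. Replicates are called biological in the labels, which do not tell if each came from a separate isolation, and p-values therefore reflect only how these samples vary.

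Total counts were 36860678 to 37344860 reads in the si-Rbm22 libraries and 34269042 to 35955301 in the si-Control-labelled libraries. Rbm22 had 533, 466 and 491 reads in si-Rbm22 and 798, 916 and 774 in the si-Control-labelled libraries. This was 13.5 ± 0.892 CPM in si-Rbm22 against 23.2 ± 1.79 CPM in the other group (SD, n = 3 each), where CPM sets the reads of a gene against the TMM-scaled total of its library, a log2 fold change of −0.78 with an edgeR adjusted p of 4.22e-06. Marker genes went against the cell label in the si-Control-labelled libraries. The summed level of 14 heart muscle cell markers was 24749.7 to 38832 CPM in si-Rbm22 and 76.9 to 87.1 CPM in the si-Control-labelled libraries, where 6 of the 14 (Mybpc3, Nppa, Myl2, Myl3, Myl7 and Pln) had no read. The summed level of 15 skeletal myoblast markers was 1.45 to 2.00 CPM in si-Rbm22 and 720.4 to 739 CPM in the si-Control-labelled libraries, with Myod1, Myf5, Chrnd and Cacng1 at no read in si-Rbm22. The doubted libraries are all 3 of their group, so no result could be computed without them, and the siRNA and the kind of cell cannot be told apart. Within si-Rbm22, replicate 3 stood apart with the lowest heart muscle sum (24749.7 CPM, against 36759 and 38832).

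Cadherins are membrane proteins that hold neighbouring cells together by binding, in the presence of calcium, to cadherins on the next cell. Classical cadherins of types I and II carry a cytoplasmic tail that binds p120-catenin and beta- or gamma-catenin, and alpha-catenin links that complex to actin. Cells tend to make the cadherins of their own kind, so that the set of cadherins is widely read as a sign of cell kind. In the heart, N-cadherin (Cdh2) joins muscle cells end to end at the intercalated disc, and VE-cadherin (Cdh5) seals the endothelium.

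All 9 genes differed between the groups. Cdh1, Cdh2, Cdh3, Cdh4, Cdh5, Cdh6, Cdh11 and Cdh13 were higher in si-Rbm22 and Cdh15 was lower, each past an adjusted p of 0.05 in edgeR's quasi-likelihood test with Benjamini-Hochberg adjustment over 14621 genes. Of all genes tested, 82.0% passed, 43.1% higher and 38.9% lower, so that 9 of 9 is close to what most genes did. None of the 9 overlapped between the groups, and 84.2% of all genes tested did not overlap either. Only Cdh2, Cdh11 and Cdh13 had enough reads for the test in both groups, and all 3 passed and were higher. Among the 11873 genes of that kind, 79.5% passed and 37.5% were higher. The other 6 entered the test through 1 group alone and so had to differ: Cdh15 through the si-Control-labelled libraries, and Cdh1, Cdh3, Cdh4, Cdh5 and Cdh6 through si-Rbm22. In a culture, fewer cells of a kind and less RNA per cell cannot be told apart.

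**Figure D1:**
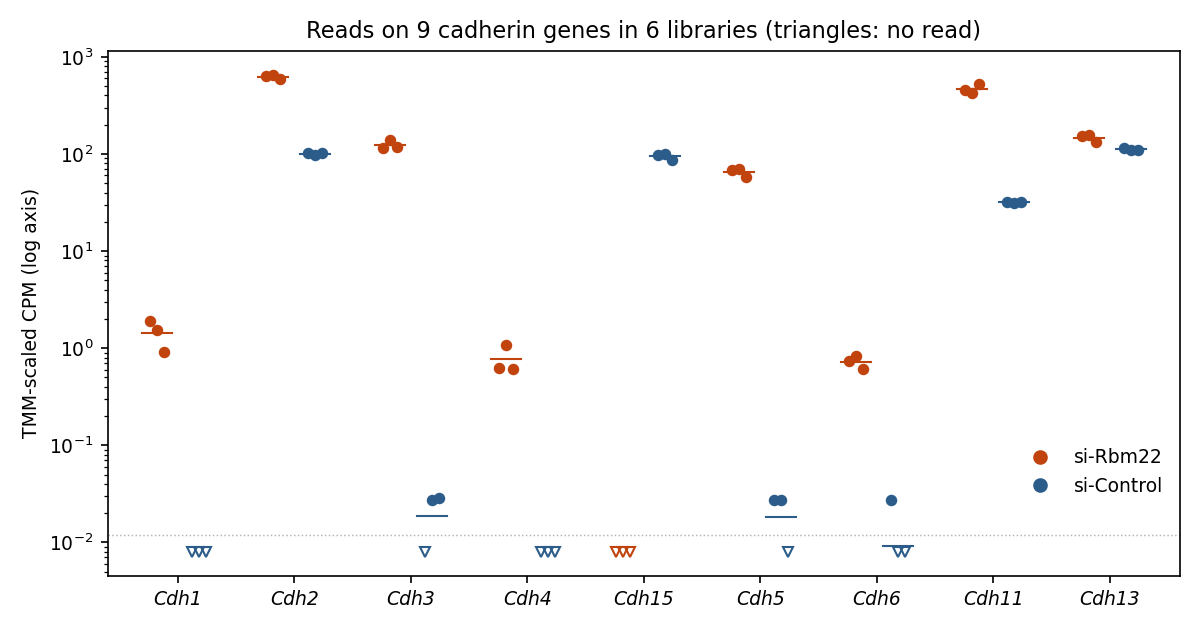
TMM-scaled CPM (log axis) of the 9 cadherin genes in each si-Rbm22 library (orange) and each si-Control-labelled library (blue), with the group mean as a line and open triangles for libraries without a read. Cdh15 is the 1 gene with reads in the si-Control-labelled libraries alone, Cdh13 lies closest between the groups, and Cdh3 and Cdh5 have at most 1 read per si-Control-labelled library.

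Cdh15 encodes M-cadherin, the cadherin of skeletal muscle precursors and satellite cells. It had no read in any si-Rbm22 library and 3539, 3636 and 2997 reads in the si-Control-labelled libraries. The level was 97.6, 100.2 and 86.3 CPM in the si-Control-labelled libraries, so the groups were completely apart. Set against a floor of 3 counts over the 3 si-Rbm22 libraries, Cdh15 was at least 3479-fold lower in si-Rbm22 (edgeR adjusted p = 5.81e-14). Of the genes tested, 132 (0.903%) had no read in si-Rbm22. Beside it stood the 15 skeletal myoblast markers: 12 were tested, all 12 were lower in si-Rbm22, against 38.9% of all genes tested, and 10 of these had entered the test through the si-Control-labelled libraries alone. Pax7, Pax3 and Myf6 had too few reads in either group to be tested. The part of such cells in the Cdh15 result was not tested.

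Cdh15 lies on chromosome 8 (GRCm38, 122847966 to 122867397, plus strand, ENSMUSG00000031962) with 14 exons in its longest GENCODE transcript. As Cdh15 was the 1 gene of the 9 with reads in the si-Control-labelled libraries alone, the 260 bases around its RefSeq start (250 before and 10 from the start on, GRCm38.p6) were searched for CANNTG. This is the pattern known to be bound by basic helix-loop-helix factors such as MyoD, and it reads the same on both strands. There were 4 matches. Each is given 5′ to 3′ with 8 bases on either side and the match in capitals, together with the single match in the window of Cdh6, the other cadherin with a RefSeq entry in the table used (2 of 9 genes).
Cdh15 site 1, chr8:122848130-122848151, plus strand: actgatcaCATATGctgtcact
Cdh15 site 2, chr8:122848231-122848252, plus strand: cccacctaCATGTGctgtcact
Cdh15 site 3, chr8:122848334-122848355, plus strand: ccaccacaCACGTGcagtccct
Cdh15 site 4, chr8:122848364-122848385, plus strand: tccccaagCACTTGcgctgtca
Cdh6 site 1, chr15:13173677-13173698, minus strand: acttcattCACTTGcaaatcag
The 4 sites of Cdh15 end 231, 130 and 27 bases before the RefSeq start or, in the last case, span it. GENCODE places the start of Cdh15 408 bases further upstream, so that in that annotation the same bases lie inside the first exon. Among 32851 RefSeq windows of the same length, 67.7% held at least 1 CANNTG and 4.37% held 4 or more. Neither window held CAGCTG, which 13.5% of all windows hold, nor CAGGTG or its reverse CACCTG, which 17.8% hold. A match is a matter of letters only and no binding was measured.

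Cdh2 encodes N-cadherin, the cadherin of the intercalated disc, which fibroblasts and myoblasts make as well. It had the most reads of the 9 genes in si-Rbm22, 23221, 23617 and 22219, against 3708, 3581 and 3535 in the si-Control-labelled libraries. The level was 634, 656 and 592 CPM in si-Rbm22 and 102, 98.7 and 102 CPM in the si-Control-labelled libraries. Every si-Rbm22 library was well above every library of the other group, and the spread was small on both sides (coefficients of variation of 5.21% in si-Rbm22 and 1.95% in the si-Control-labelled libraries). Cdh2 was 6.21-fold higher in si-Rbm22 (log2 fold change 2.64, SE 0.0607, edgeR adjusted p = 6.07e-14). Of all tested genes, 15.0% passed the test with a rise at least as large. Its lowest si-Rbm22 library, replicate 3, was also the one with the lowest heart muscle marker sum, and the log2 fold change without that library was 2.67. All 14 heart muscle markers were higher in si-Rbm22, against 43.1% of all genes tested, but 9 of them had entered the test through si-Rbm22 alone, and their part in the Cdh2 result was not tested. Cdh2 was never absent: the si-Control-labelled libraries, with few heart muscle transcripts, still averaged 101 ± 1.97 CPM (SD, n = 3).

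Cdh3 encodes P-cadherin, known from placenta and basal layers of epithelia. It had 4186, 4982 and 4421 reads in si-Rbm22 and 0, 1 and 1 reads in the si-Control-labelled libraries. The si-Rbm22 level was 114, 138 and 118 CPM. The ratio of the groups was 6610, with a 95% counting interval of 1830 to 54600 (edgeR adjusted p = 3.15e-15), and no library came near the other group. Cdh1, which encodes E-cadherin, the cadherin of most epithelia, was present at a trace, with 70, 55 and 34 reads in si-Rbm22 and none in the si-Control-labelled libraries. It was at 1.91, 1.53 and 0.906 CPM in si-Rbm22, at least 51.8-fold higher (edgeR adjusted p = 3.64e-06). Of the genes tested, 4.27% had no read in any si-Control-labelled library. The 2 genes are close neighbours on chromosome 8, yet their si-Rbm22 levels differed widely: per length, Cdh3 was at 97.9 ± 8.70 and Cdh1 at 1.10 ± 0.372 TPM, the counterpart of CPM corrected for transcript length (SD, n = 3).

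Markers of 2 cell kinds moved with Cdh3 and Cdh1. All 13 measured epicardial and mesothelial markers were higher in si-Rbm22, with a summed level of 3109 to 3360.0 CPM against 99.1 to 103 CPM in the si-Control-labelled libraries, where Upk3b, Upk1b, Krt18, Gpm6a and Aldh1a2 had no read. Of these 13, 9 had entered the test through si-Rbm22 alone, and 43.1% of all genes tested were higher. Of 14 epithelial markers, 6 were tested and all 6 were higher, with sums of 119 to 131 CPM in si-Rbm22 and 17.3 to 19.2 CPM in the si-Control-labelled libraries, but 5 of the 6 had entered through si-Rbm22 alone. Most of the epithelial sum came from Krt14 (63.4 CPM in si-Rbm22 and 17.8 CPM in the si-Control-labelled libraries) and, in si-Rbm22, from Lsr (36.1 CPM, against 0.0656 CPM in the si-Control-labelled libraries). Epcam, Cldn7, Esrp1, Krt5 and Crb3, which define epithelia, stood at 0.344 CPM or less in si-Rbm22 and at no read in the si-Control-labelled libraries. Cldn3 and Cldn4, claudins of tight junctions, also had no read there but stood at 10.9 ± 1.95 and 2.41 ± 0.219 CPM in si-Rbm22 (SD, n = 3). Esrp2, an epithelial splicing regulator, stood at 9.94 CPM in si-Rbm22 and 0.132 CPM in the si-Control-labelled libraries (log2 fold change 6.21, edgeR adjusted p = 5.5e-10). The part of either kind of cell in the Cdh3 and Cdh1 results was not tested.

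Cdh4 encodes R-cadherin, first known from retina and also found in kidney and early muscle. It had 23, 39 and 23 reads in si-Rbm22 and none in the si-Control-labelled libraries. This was 0.775 ± 0.268 CPM in si-Rbm22 (SD, n = 3), at least 27.7-fold higher (edgeR adjusted p = 2.06e-05). At this depth Cdh4 was detected in every si-Rbm22 library, but its replicates differed among themselves by up to 1.77 times.

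Cdh11 encodes OB-cadherin, the type II cadherin of mesenchymal cells and fibroblasts. It had 16692, 15331 and 19744 reads in si-Rbm22 and 1164, 1144 and 1108 in the si-Control-labelled libraries. The level was 456, 426 and 526 CPM in si-Rbm22 and 32.1, 31.5 and 31.9 CPM in the si-Control-labelled libraries. The groups did not overlap, and Cdh11 was 14.7-fold higher in si-Rbm22 (log2 fold change 3.88, SE 0.0812, edgeR adjusted p = 2.64e-14). Between them, the si-Control-labelled libraries were nearly equal, with a coefficient of variation of 0.945%, against 10.9% in si-Rbm22. Cdh11 was highest in si-Rbm22 replicate 3, the library in which Cdh2, Cdh5 and Cdh13 and, on few reads, Cdh1 and Cdh6 were lowest. Without that library the log2 fold change of Cdh11 was 3.78. Fibroblast markers did not move with Cdh11 as a list: their summed level was 5723 to 5926 CPM in si-Rbm22 and 21509 to 23349 CPM in the si-Control-labelled libraries. Much of this sum came from collagen genes such as Col1a2 (1009 CPM in si-Rbm22 and 10386 CPM in the si-Control-labelled libraries) and Col3a1 (1595 and 4656 CPM). Of the 12 fibroblast markers, 7 were lower in si-Rbm22, 3 were higher (Tcf21, Thy1 and Dcn) and 2 did not pass. Of all genes tested, 38.9% were lower and 43.1% higher. Among the 12, 3 had entered the test through 1 group alone, Tcf21 and Thy1 of them through si-Rbm22. Tcf21, a transcription factor of heart fibroblasts, averaged 57.1 CPM in si-Rbm22 and had no read in the si-Control-labelled libraries. The part of fibroblasts in the Cdh11 result was not tested.

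Cdh5 encodes VE-cadherin, the cadherin of endothelial cells. It had 2517, 2492 and 2157 reads in si-Rbm22 and 1, 1 and 0 in the si-Control-labelled libraries. The si-Rbm22 level was 68.7, 69.2 and 57.5 CPM, and the ratio of the groups was 3490 with a 95% counting interval of 965 to 28800 (edgeR adjusted p = 1.14e-14). Endothelial markers moved the same way: all 16 were higher in si-Rbm22, with sums of 437 to 485 CPM against 11.0 to 12.5 CPM in the si-Control-labelled libraries, where Tie1, Emcn, Robo4 and Sox17 had no read. Of all genes tested 43.1% were higher, and 10 of the 16 had entered the test through si-Rbm22 alone. Pecam1, which encodes CD31, was at 46.5 CPM in si-Rbm22 and 0.0644 CPM in the si-Control-labelled libraries. The part of endothelial cells in the Cdh5 result was not tested. Cdh6, the K-cadherin of kidney tubules, had 27, 30 and 23 reads in si-Rbm22 and 1, 0 and 0 in the si-Control-labelled libraries. Its level was 0.728 ± 0.111 CPM in si-Rbm22 (SD, n = 3), and the ratio was 77.9 with an interval of 13.6 to 3110 (edgeR adjusted p = 1.12e-05). Cdh6 was thus present in every si-Rbm22 library at under 1 CPM.

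Cdh13 encodes T-cadherin, which is anchored by lipid, has no cytoplasmic tail and no catenin-binding site, and binds adiponectin on vessel and heart muscle cells. It is therefore not a classical cadherin in the strict sense. It had 5558, 5597 and 4979 reads in si-Rbm22 and 4191, 4031 and 3772 in the si-Control-labelled libraries. The level was 152, 155 and 133 CPM in si-Rbm22 and 116, 111 and 109 CPM in the si-Control-labelled libraries. The groups did not overlap, but the gap was the smallest of the 9 genes: Cdh13 was 1.31-fold higher in si-Rbm22 (log2 fold change 0.39, SE 0.0659, edgeR adjusted p = 7.73e-05). Of all tested genes, 36.8% passed with a rise at least as large, while the median log2 fold change over all tested genes was 0.05. The 11 smooth muscle and pericyte markers were split, 6 higher and 5 lower in si-Rbm22, beside 43.1% higher and 38.9% lower of all genes tested. Of these 11, 3 had entered the test through 1 group alone. These markers summed to 2469 to 3023 CPM in si-Rbm22 and 3369 to 3402 CPM in the si-Control-labelled libraries. Their part in the Cdh13 result was not tested. Without si-Rbm22 replicate 3 the log2 fold change of Cdh13 was 0.45. The remaining marker lists were those of macrophages and Schwann cells, to be read beside the same 43.1% and 38.9% of all genes tested. For macrophages, all 9 tested genes were higher, but 6 of them had entered through si-Rbm22 alone. Macrophage sums were 83.6 to 113 CPM in si-Rbm22 and 5.57 to 7.36 CPM in the si-Control-labelled libraries. For Schwann cells, 5 of 7 tested genes were higher and 2 lower, and 2 of the 7 had entered through 1 group alone. Schwann cell sums were 111 to 116 CPM in si-Rbm22 and 52.6 to 55.8 CPM in the si-Control-labelled libraries.

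**Figure D2:**
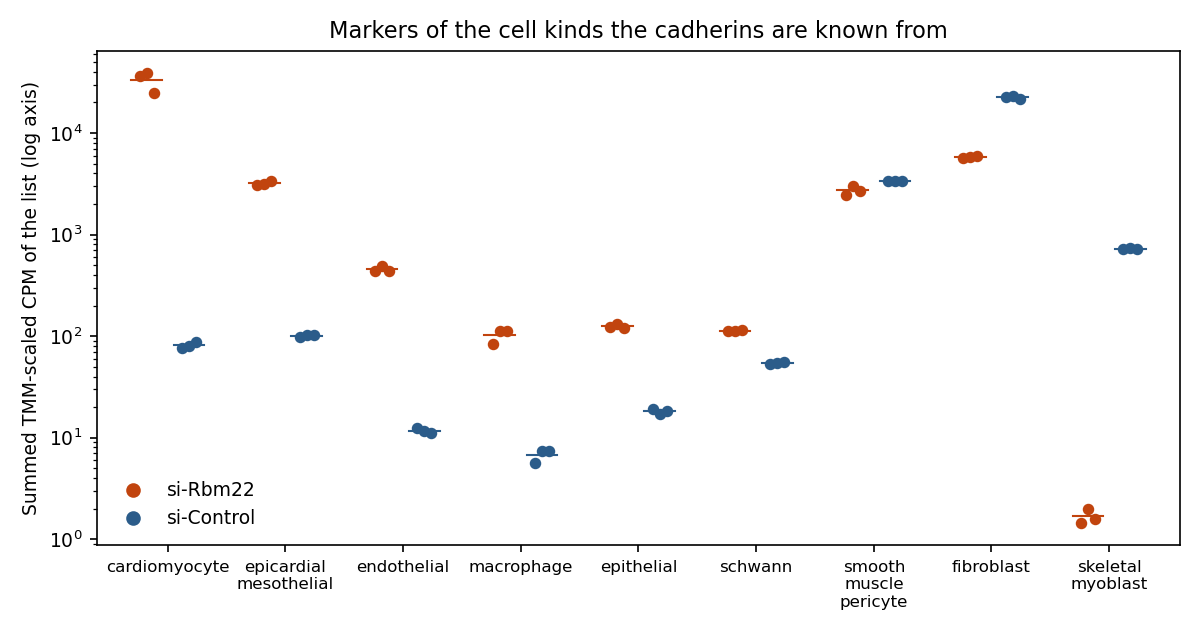
Summed TMM-scaled CPM (log axis) of 9 lists of cell markers in each si-Rbm22 library (orange) and each si-Control-labelled library (blue), with group means as lines. Heart muscle, mesothelial, endothelial, macrophage, epithelial and Schwann cell sums are higher in si-Rbm22, and the skeletal myoblast sum is 1.45 to 2.00 CPM there against 720.4 to 739 CPM in the si-Control-labelled libraries.

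Levels of different cadherins were compared per length, as TPM over merged GENCODE exons. In si-Rbm22 the order was Cdh2, Cdh11, Cdh3, Cdh5, Cdh13, Cdh1, Cdh4 and Cdh6, with Cdh15 at no read. Cdh2 stood at 270.5 ± 7.47 TPM, Cdh11 at 184 ± 24.8, Cdh3 at 97.9 ± 8.70, Cdh5 at 53.9 ± 4.34 and Cdh13 at 45.4 ± 2.76 TPM (SD, n = 3). These 5 and Cdh1 kept separate ranges over the 3 libraries, and Cdh13 lay 41.3 times above Cdh1. Cdh4 (0.300 to 0.508 TPM) and Cdh6 (0.243 to 0.314 TPM) overlapped and could not be ordered. In the si-Control-labelled libraries the order was Cdh15 (106 ± 9.08 TPM), Cdh2 (45.3 ± 0.541), Cdh13 (36.1 ± 1.24) and Cdh11 (13.0 ± 0.0814 TPM), all with separate ranges. The other 5 had at most 2 reads in the 3 libraries together and could not be ordered among themselves.

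The make-up of the summed cadherin level differed accordingly. In si-Rbm22, Cdh2 made up 41.4 ± 1.55%, Cdh11 28.1 ± 3.52%, Cdh3 15.0 ± 1.31%, Cdh5 8.25 ± 0.757% and Cdh13 6.95 ± 0.497% of the 9 genes' TPM (SD, n = 3). In the si-Control-labelled libraries, Cdh15 made up 52.7 ± 1.97%, Cdh2 22.7 ± 1.24%, Cdh13 18.0 ± 0.485% and Cdh11 6.49 ± 0.303%. Each of these 6 shares lay apart between the groups. Shares within a library sum to 100, so one share cannot move without another. The order of the shares in the si-Control-labelled libraries hung on the length used: by the longest transcript the shares were 36.3% for Cdh15, 30.6% for Cdh13 and 26.0% for Cdh2, and by reads without length Cdh13 led with 32.9%, then Cdh2 with 29.8% and Cdh15 with 27.9%. Cdh2 led in si-Rbm22 by all 3 measures, followed by Cdh11, but by the longest transcript Cdh13 (11.1%) stood above Cdh3 (9.71%) there, as it did by reads (10.2% and 8.60%).

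**Figure D3:**
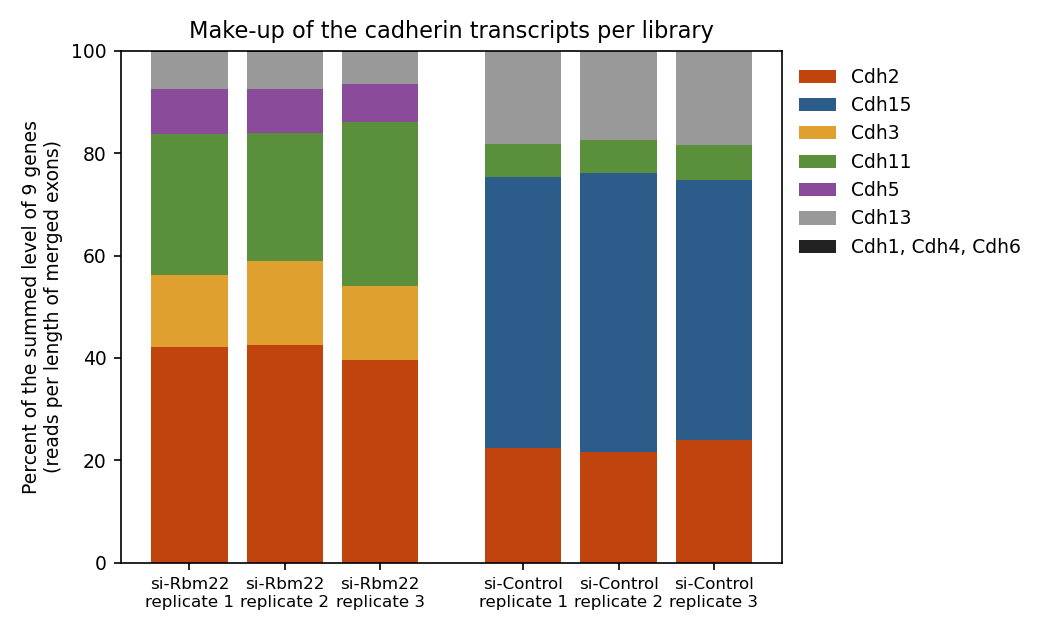
Percent of the summed level per length of the 9 cadherin genes in each library, si-Rbm22 on the left and the si-Control-labelled libraries on the right. Cdh2 is 41.4% of the sum in si-Rbm22 on average and Cdh15 is 52.7% in the si-Control-labelled libraries, while Cdh1, Cdh4 and Cdh6 are too small to be seen.

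Summed over all 9 genes, the cadherin level was 646, 652 and 662 TPM in si-Rbm22 and 205, 207 and 188 TPM in the si-Control-labelled libraries, 3.27 times as much in si-Rbm22. The type II genes differed more, at 238 ± 20.8 TPM in si-Rbm22 and 13.0 ± 0.0988 TPM in the si-Control-labelled libraries, an 18.3-fold ratio carried by Cdh11 and Cdh5. The type I genes stood at 370 ± 14.1 TPM in si-Rbm22 and 151 ± 8.94 TPM in the si-Control-labelled libraries, a 2.45-fold ratio (SD, n = 3 each). Cdh2 and Cdh15, the cadherins known from heart and skeletal muscle lineages, summed to 270.5 TPM in si-Rbm22, all of it Cdh2, and to 151 TPM in the si-Control-labelled libraries, the larger share of it Cdh15. These sums were chosen with the values known and carry no test. Relative to Cdh2, Cdh11 was 0.651, 0.588 and 0.805 in si-Rbm22 and 0.284, 0.289 and 0.284 in the si-Control-labelled libraries, so the ratio of these 2 genes also lay apart between the groups.

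The catenins, which tie the cadherin tail to actin, went in both directions. All 9 were tested, 6 were higher in si-Rbm22, 2 were lower and 1 did not pass, with a median log2 fold change of 1.68 against 0.05 over all genes. Of the 6 catenins with enough reads in both groups, 3 were higher and 2 lower, against 37.5% and 42.0% of all such genes. Ctnnb1, beta-catenin, was nearly level, with 420.3, 442 and 423 TPM in si-Rbm22 and 492, 497 and 499 TPM in the si-Control-labelled libraries. It was lower in si-Rbm22 by a log2 fold change of −0.15 (SE 0.0560, edgeR adjusted p = 0.0214). Jup, gamma-catenin or plakoglobin, which also serves desmosomes, was 6.38-fold higher (log2 fold change 2.67, SE 0.0825, edgeR adjusted p = 4.11e-12). Its level was 251, 260.2 and 220.1 TPM in si-Rbm22 and 41.9, 40.2 and 37.3 TPM in the si-Control-labelled libraries. Jup thus made up 36.2 ± 1.74% of the Ctnnb1 and Jup sum in si-Rbm22 and 7.43 ± 0.459% in the si-Control-labelled libraries.

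Among the p120 family, which binds the tail next to the membrane, the members moved in both directions. Pkp4 had 77.9, 76.1 and 67.6 TPM in si-Rbm22 and 23.8, 24.7 and 23.8 TPM in the si-Control-labelled libraries (log2 fold change 1.68, SE 0.0724, edgeR adjusted p = 4.35e-11). Ctnnd1, p120-catenin itself, was lower, at 12.4 ± 0.172 TPM in si-Rbm22 and 20.9 ± 0.685 TPM in the si-Control-labelled libraries (log2 fold change −0.70, SE 0.0687, edgeR adjusted p = 3.52e-07). Arvcf did not pass, with overlapping groups and a log2 fold change of −0.13 (SE 0.0748, edgeR adjusted p = 0.116). Ctnnd2, known from neurons, had 239, 251 and 290 reads in si-Rbm22 and 5, 12 and 21 in the si-Control-labelled libraries, and entered the test through si-Rbm22 alone (log2 fold change 4.30, SE 0.334, edgeR adjusted p = 2.77e-08).

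All 3 alpha-catenins were higher in si-Rbm22, beside 43.1% of all genes tested. Ctnna2 and Ctnna3 had entered the test through si-Rbm22 alone and so had to differ. Ctnna1, the common form, had 936, 951 and 852 TPM in si-Rbm22 and 431, 436 and 428 TPM in the si-Control-labelled libraries (log2 fold change 1.14, SE 0.0647, edgeR adjusted p = 8.61e-10). Ctnna3, the alphaT-catenin of the intercalated disc, had 1333, 1051 and 724 reads in si-Rbm22 and none in the si-Control-labelled libraries, and was at least 1011-fold higher (edgeR adjusted p = 9.72e-06). It was lowest in si-Rbm22 replicate 3, as the heart muscle marker sum was. Ctnna2, known from the nervous system, had 80, 104 and 76 reads in si-Rbm22 and none in the si-Control-labelled libraries, at least 84.6-fold higher (edgeR adjusted p = 3e-07). Ctnna3 was still a small part of the alpha-catenin sum in si-Rbm22, 1.45 ± 0.362%. Per unit of Ctnnb1 and Jup together, the 8 cadherins with a catenin-binding tail summed to 0.906 ± 0.0521 in si-Rbm22 and 0.306 ± 0.0172 in the si-Control-labelled libraries (ratio of TPM; SD, n = 3 each). The cadherin sum thus differed by 3.71 times between the groups and the sum of Ctnnb1 and Jup by 1.25 times. The p120 family sum differed by 1.66 times and the alpha-catenin sum by 2.15 times.

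**Figure D4:**
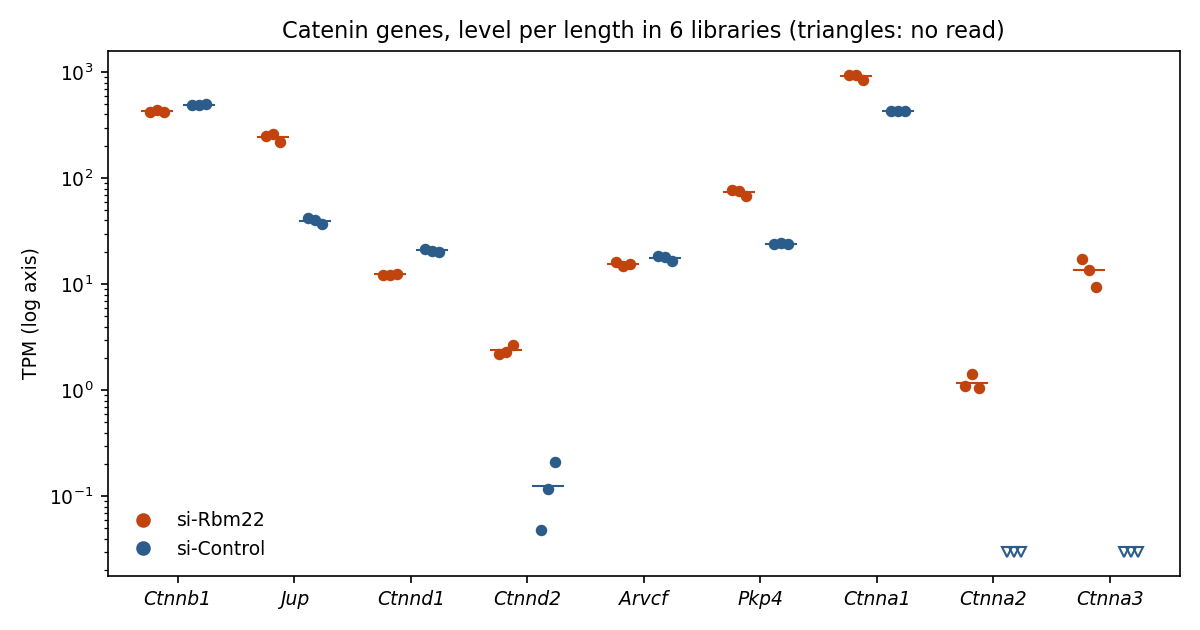
TPM (log axis) of 9 catenin genes in each si-Rbm22 library (orange) and each si-Control-labelled library (blue), with group means as lines and open triangles for libraries without a read. Ctnnb1 and Arvcf lie close between the groups, Jup is 6.38-fold higher in si-Rbm22, and Ctnna2 and Ctnna3 have reads in si-Rbm22 alone.

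Genes that link the cadherin complex to actin and to other junctions went both ways. Of 20 tested, 11 were higher in si-Rbm22, 6 were lower and 3 did not pass, with a median log2 fold change of 0.35. Of the 19 with enough reads in both groups, 10 were higher and 6 lower, against 37.5% and 42.0% of all such genes. Plekha7, which joins p120-catenin to microtubules at the adherens junction, stood at 106 ± 6.34 CPM in si-Rbm22 and 1.27 ± 0.195 CPM in the si-Control-labelled libraries (log2 fold change 6.38, SE 0.105, edgeR adjusted p = 2.7e-15). Nectin2, an adhesion receptor beside the cadherins, stood at 126 ± 6.35 CPM in si-Rbm22 and 24.7 ± 2.28 CPM in the si-Control-labelled libraries (log2 fold change 2.35, edgeR adjusted p = 1.74e-12). Lima1, the actin-binding protein EPLIN that binds alpha-catenin, was lower, at 115 ± 6.54 CPM in si-Rbm22 and 286 ± 1.86 CPM in the si-Control-labelled libraries (log2 fold change −1.32, edgeR adjusted p = 5.5e-11).

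Genes for partners of single cadherins showed no common direction, with 3 higher in si-Rbm22, 2 lower and 2 not passed among 7 tested and a median log2 fold change of 0.16, beside 43.1% higher and 38.9% lower of all genes tested. Ptprb, VE-PTP, the phosphatase that binds VE-cadherin, had 2550, 2244 and 3748 reads in si-Rbm22 and 1 read in each si-Control-labelled library. Its ratio stood at 2770, counting interval 948 to 13400 (edgeR adjusted p = 6.95e-09). Like Cdh5, Ptprb had entered the test through si-Rbm22 alone, so the shared side of these genes was fixed on entry. Cdon and Boc encode receptors that associate with cadherins in muscle precursors. Cdon was lower in si-Rbm22, at 142 ± 0.914 CPM against 373 ± 9.12 CPM in the si-Control-labelled libraries (log2 fold change −1.39, SE 0.0532, edgeR adjusted p = 1.18e-11). Boc did not pass, at 27.4 ± 2.99 CPM in si-Rbm22 and 24.5 ± 1.49 CPM in the si-Control-labelled libraries (log2 fold change 0.16, edgeR adjusted p = 0.126). Neo1, a netrin receptor, was slightly higher in si-Rbm22 (log2 fold change 0.28, edgeR adjusted p = 0.000242). Fgfr1, a growth factor receptor that N-cadherin can bind, was lower in si-Rbm22 at 123 ± 7.69 CPM against 222 ± 6.50 CPM in the si-Control-labelled libraries (log2 fold change −0.85, edgeR adjusted p = 8.99e-09). For Cdh13, the ligand Adipoq had 6 reads in si-Rbm22 and 2 in the si-Control-labelled libraries and was not tested. The adiponectin receptor genes stood at a log2 fold change of 0.05 for Adipor1 (edgeR adjusted p = 0.358, not passed) and 0.79 for Adipor2 (edgeR adjusted p = 1.02e-08, higher in si-Rbm22).

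Transcription factors known for repressing E-cadherin were mostly lower in si-Rbm22. Of 10 regulators, all tested, 8 were lower and 2 higher in si-Rbm22, with a median log2 fold change of −1.42 against 0.05 over all tested genes. All 8 with enough reads in both groups were lower, against 42.0% of all such genes. Snai2, Slug, stood at 6.53 ± 1.18 CPM in si-Rbm22 and 69.1 ± 1.66 CPM in the si-Control-labelled libraries (log2 fold change −3.40, SE 0.105, edgeR adjusted p = 1.54e-12). Snai1, Snail, stood at 5.96 ± 0.613 CPM in si-Rbm22 and 45.3 ± 3.28 CPM in the si-Control-labelled libraries (log2 fold change −2.92, edgeR adjusted p = 3.53e-12). Zeb1 stood at 69.1 ± 3.21 CPM in si-Rbm22 and 261 ± 13.4 CPM in the si-Control-labelled libraries (log2 fold change −1.91, edgeR adjusted p = 2.01e-12). Tcf3, which encodes the E proteins E12 and E47, stood at 42.4 ± 1.06 CPM in si-Rbm22 and 120 ± 6.72 CPM in the si-Control-labelled libraries (log2 fold change −1.50, edgeR adjusted p = 2.73e-11). Twist1, a regulator of mesenchyme that can repress E-cadherin, went the other way, with 478, 438 and 591 reads in si-Rbm22 and none in the si-Control-labelled libraries. It was at least 488-fold higher (edgeR adjusted p = 1.21e-10). Snai3 had 31, 27 and 17 reads in si-Rbm22 and 0, 1 and 0 in the si-Control-labelled libraries, a ratio of 73.0 with a counting interval of 12.7 to 2920 (edgeR adjusted p = 2.19e-05).

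Genes for the cutting and turnover of cadherins were split, with 6 of 10 higher and 4 lower in si-Rbm22 and a median log2 fold change of 0.24. All 10 had enough reads in both groups, and of all such genes 37.5% were higher and 42.0% lower. Adam10, the main sheddase of E-, N- and VE-cadherin, was higher in si-Rbm22, at 347 ± 25.7 CPM against 159 ± 6.14 CPM in the si-Control-labelled libraries (log2 fold change 1.12, SE 0.0642, edgeR adjusted p = 9.2e-10). Adam15, another membrane protease, was lower in si-Rbm22, at 55.5 ± 3.45 CPM against 182 ± 7.21 CPM in the si-Control-labelled libraries (log2 fold change −1.71, edgeR adjusted p = 7.73e-12). Furin, which trims the cadherin precursor, was higher (log2 fold change 0.70, edgeR adjusted p = 1.11e-07), as was Numb, an adaptor for cadherin endocytosis (log2 fold change 0.67, edgeR adjusted p = 9.13e-07).

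**Figure D5:**
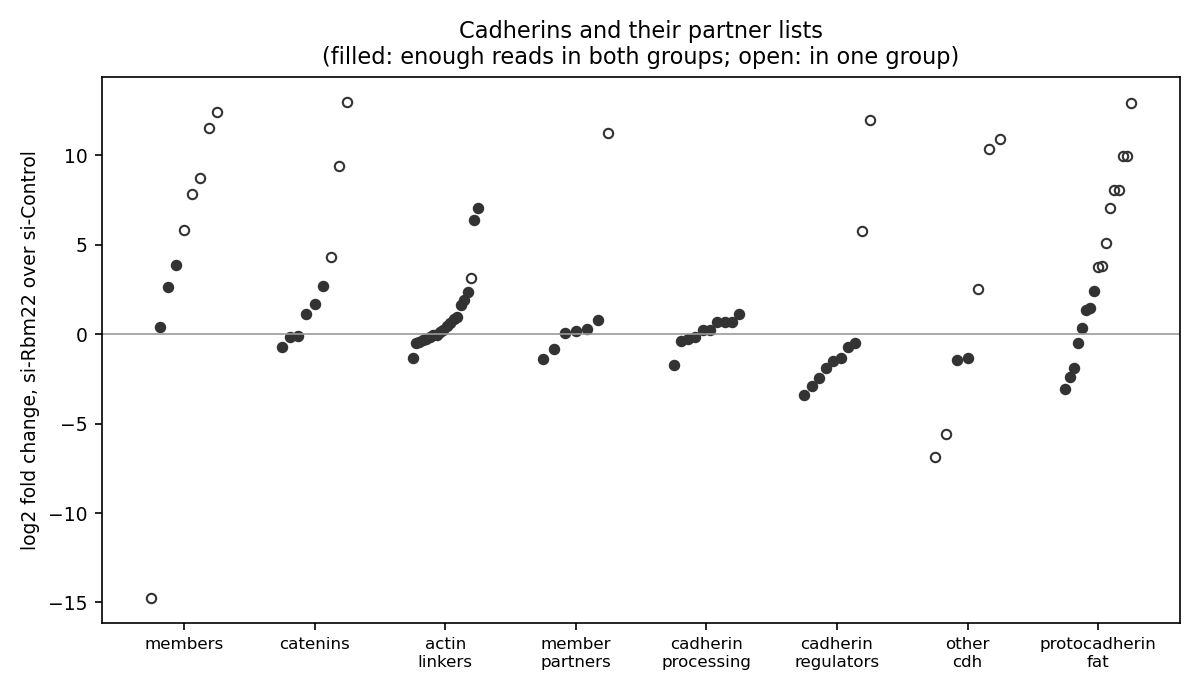
Log2 fold change of si-Rbm22 over the si-Control-labelled libraries for each tested gene of the 9 cadherins and 7 related lists, filled where the gene had enough reads in both groups and open where it had them in one group. The 8 filled regulators all lie below 0, and the fitted values of open points depend on a prior count and are no measured folds.

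Of 14 other cadherin genes, 13 were measured and 7 were tested, 3 higher and 4 lower in si-Rbm22, with a median log2 fold change of −1.31, where 43.1% of all genes tested were higher and 38.9% lower. Cdh18, known from the central nervous system, had the most reads of them in the si-Control-labelled libraries, with 1, 8 and 8 reads in si-Rbm22 and 693, 648 and 656 there (log2 fold change −6.88, SE 0.265, edgeR adjusted p = 1.25e-11). Cdh17 encodes LI-cadherin, known from liver and intestine, and had 5, 3 and 0 reads in si-Rbm22 and 123, 138 and 138 in the si-Control-labelled libraries, 51.2-fold lower in si-Rbm22 with a counting interval of 25.8 to 120. Cdh15 was thus not the only cadherin on the side of the si-Control-labelled libraries. Cdh24 was lower, at 5.34 ± 0.723 CPM in si-Rbm22 and 14.6 ± 1.06 CPM in the si-Control-labelled libraries (log2 fold change −1.45, edgeR adjusted p = 2.07e-07). Cdh23, a part of the tip link of hair cells, stood at 1.42 ± 0.367 CPM in si-Rbm22 and 3.54 ± 0.348 CPM in the si-Control-labelled libraries (log2 fold change −1.31, edgeR adjusted p = 0.000372). Only these 2 of the 7 tested had enough reads in both groups.

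On the other side, Cdh20 had 313, 202 and 222 reads in si-Rbm22 and none in the si-Control-labelled libraries, at least 239-fold higher (edgeR adjusted p = 6.29e-09). Cdh8, a type II cadherin known from brain, had 125, 168 and 203 reads in si-Rbm22 and none in the si-Control-labelled libraries, at least 161-fold higher (edgeR adjusted p = 3.04e-08). Cdh10 was uneven, with 34, 92 and 20 reads in si-Rbm22 and 16, 4 and 5 in the si-Control-labelled libraries (log2 fold change 2.50, SE 0.683, edgeR adjusted p = 0.00488). Cdh7, Cdh9, Cdh16, Cdh19, Cdh22 and Cdh26 had too few reads to be tested, 10 to 44 in the 3 si-Rbm22 libraries and at most 2 in the 3 si-Control-labelled libraries. No matched identifier of the count table carried the symbol Cdh12, so it was not analysed.

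Cadherin genes cluster in the genome, and 6 of the 9 lie on chromosome 8 (Cdh11, Cdh5, Cdh3, Cdh1, Cdh13 and Cdh15), the chromosome of 5.12% of the matched genes in the table. Their order in GRCm38 runs from Cdh11 (102632095 to 102785642, minus strand) and Cdh5 (104101625 to 104144511, plus strand) to Cdh3 (106510891 to 106557297, plus strand) and Cdh1 (106603351 to 106670246, plus strand). Cdh13 (118283733 to 119324921, plus strand) and Cdh15 follow. Cdh3 and Cdh1 are 46053 bases apart with 1 protein-coding gene annotated between them, and Cdh11 and Cdh5 are 1315982 bases apart with none. Neighbours did not share a level: Cdh11 kept 1108 to 1164 reads in the si-Control-labelled libraries while Cdh5 had 0 or 1, and Cdh3 was far above Cdh1 in si-Rbm22. Cdh2 lies on chromosome 18 (16588877 to 16809246, minus strand), Cdh4 on chromosome 2 (179442431 to 179899373, plus strand) and Cdh6 on chromosome 15 (13028701 to 13173675, minus strand). Genes annotated on top of Cdh2, Cdh4, Cdh5, Cdh11, Cdh13 and Cdh15 have no row of their own in the count table, so reads shared with them cannot be told apart.

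For each cadherin the 3 genes with the nearest pattern were sought among 11150 named genes averaging 5 CPM or more, by the root mean square difference of centred log2 CPM over the 6 libraries. Since the groups differ for most genes, such likeness is mainly likeness of fold change where both groups have enough reads. Cdh13 had the nearest neighbours, Ubl4a (0.03), Dgkd (0.03) and Ubqln4 (0.03). Cdh11 was nearest to Fam84b (0.06), Fam110c (0.07) and Tle4 (0.10). Cdh2 was nearest to Rpl21 (0.07), a gene with near-identical copies and so uncertain, Jup (0.07) and Tpm1 (0.07). Cdh15 was nearest to C1qtnf3 (0.17), Myod1 (0.18) and Ifi202b (0.21). Cdh3 was nearest to Crb2 (0.11), Aldh1a1 (0.17) and Myoz2 (0.20), and Cdh5 to Ptprq (0.13), Akap5 (0.17) and Emcn (0.21). In si-Rbm22, Cdh15, Myod1 and Ifi202b had no read and C1qtnf3 had 4 reads. In the si-Control-labelled libraries, Cdh3 and Cdh5 had 2 reads each, and their nearest genes had at most 16. The prior count of 2 shapes the values on that side, so these distances mainly compare levels in the other group. For Cdh1 (Ddc, Ldhb), Cdh4 (Egfl7, Lpl, Pamr1) and Cdh6 (Fndc5, Aldoc, Ttc38) the likeness rests on few reads, and the prior count of 2 draws such patterns together.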

How the data were processed

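Per the labels' protocols, TRIzol RNA went into VAHTS Universal V6 libraries. Tools named in the submitters' processing notes are fastp, HISAT2, HTSeq and DESeq2, with the build GRCm38. Their versions, the strand setting of counting and the annotation release were not given in the sources used here. What the authors deposited are raw read counts per Ensembl gene for 6 libraries, not normalized, with totals of 34269042 to 37344860. Groups and replicate numbers came from the titles. Of 18951 identifiers, 18856 matched GENCODE M21, which gave symbols, positions and exon lengths. The other 95 stayed in the tests unnamed.

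Counts were tested with edgeR 4.0.16 in R 4.3.3 (quasi-likelihood, TMM, filterByExpr, robust, no covariate), which left 14621 genes. The SE is the absolute log2 fold change over the square root of F. TPM were computed from merged exon lengths, and no length entered a test. Where a group had no read of a gene, 3 counts over that group served as its floor. A ratio with an exact 95% interval is given where a group had fewer than 10 reads. Both cover counting error alone, as reads were not tied to single molecules. Replicates of a group differed by more than sampling noise, with a chi-square per degree of freedom of at least 4.52. The procedure was first run on simulated counts in which far fewer genes differed, and by smaller factors, than here. That run therefore does not cover data in which most genes differ.

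The 9 cadherins, 7 related lists and 9 marker lists were chosen with earlier results of these data known. Named genes were the 9 cadherins, Rbm22, all catenins, other cadherins and partners of single cadherins. Of every other list, marker lists included, they were up to 4 genes with the smallest p past the test and the genes without a read in a whole group, and the 3 nearest genes of each cadherin were added. Snai3, Dcn, Myf6, Pax3, Pax7, Fat1, Dchs1, Dchs2, Celsr1 and Celsr2 were named after their values were seen. Some genes that the rule names are not reported here. Alternatives were RLE scaling, no filter, at least 10 CPM in 3 libraries, leaving out each library, a block for the replicate number, limma-voom (limma 3.58.1), DESeq2 1.42.0, mitochondrial transcripts left out, an adjusted p of 0.01, and other lengths for shares.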

Additional observations from a re-analysis of the deposited data

How the results depend on the processing

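Each of the 9 cadherins kept its direction and its side of the threshold under every alternative that tested it. The count of cadherins higher in si-Rbm22 was 8 and the count lower was 1 under all 14 alternatives, except that 5 were higher with a filter of 10 CPM in 3 libraries, which leaves Cdh1, Cdh4 and Cdh6 untested. Log2 fold changes ranged from 2.60 to 2.68 for Cdh2, from 3.78 to 3.94 for Cdh11 and from 0.34 to 0.45 for Cdh13, whose largest adjusted p was 0.00158. The fitted values of the other 6, which depend on a prior count and are no measured folds, ranged from 6.64 to 8.95 for Cdh1, from 11.92 to 12.79 for Cdh3, from 5.76 to 7.94 for Cdh4, from 11.02 to 11.85 for Cdh5, from 5.19 to 7.72 for Cdh6 and from −14.83 to −12.76 for Cdh15. The lowest values of Cdh1, Cdh4 and Cdh6 and the smallest fall of Cdh15 were those of limma-voom. Without si-Control replicate 1, which holds the only Cdh6 read of its group, the value of Cdh6 was 7.72 against 5.84. With single libraries left out, the related lists had 43 to 47 genes higher and 27 to 30 lower, and 11773 to 12315 genes passed in all. Same-numbered replicates did not deviate together (correlations −0.00822, 0.0142 and 0.0697 over 12264 genes). Such correlations cannot tell whether the numbers pair samples from the same isolation. With the replicate number as a block, 8 cadherins were higher and 1 lower, 45 related genes were higher and 29 lower, and 11945 genes passed. Depth limits Cdh1, Cdh4 and Cdh6, at 23 to 70 reads per si-Rbm22 library: in the si-Control-labelled libraries their level was at or below the floor of 3 counts over the group, so their folds are bounds or wide intervals. The order of cadherin shares changed with the length used. No alternative could leave out the si-Control-labelled libraries, whose content goes against their label.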

Other observations

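Beyond the classical cadherins, the protocadherins and the large cadherins of planar polarity and growth control also differed between the groups, in both directions. Of 19 genes measured, 17 were tested, 13 higher and 4 lower in si-Rbm22, with a median log2 fold change of 3.75 against 0.05 over all tested genes, of which 43.1% were higher and 38.9% lower. Of the 8 with enough reads in both groups, 4 were higher and 4 lower, against 37.5% and 42.0% of all such genes, and the list was chosen with earlier results of these data known. Fat1, a giant cadherin that restrains growth and shapes actin, was the most abundant by reads, at 682 ± 31.7 CPM in si-Rbm22 and 269 ± 5.68 CPM in the si-Control-labelled libraries (SD, n = 3 each; log2 fold change 1.34, edgeR adjusted p = 3.73e-11). Its relative Fat4 went the other way, at 16.5 ± 0.583 CPM in si-Rbm22 and 87.2 ± 4.08 CPM in the si-Control-labelled libraries (log2 fold change −2.40, edgeR adjusted p = 5.78e-13). So did Dchs2 (9.50 ± 1.27 CPM in si-Rbm22 and 35.8 ± 1.05 CPM in the si-Control-labelled libraries, log2 fold change −1.91), while Dchs1, the known ligand of Fat4, was higher in si-Rbm22 (11.6 ± 1.77 CPM in si-Rbm22 and 4.12 ± 0.597 CPM in the si-Control-labelled libraries, log2 fold change 1.49, edgeR adjusted p = 1.24e-06).

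Pcdh7 had 13326, 13173 and 11153 reads in si-Rbm22 and 2446, 2413 and 2137 in the si-Control-labelled libraries (log2 fold change 2.39, edgeR adjusted p = 1.81e-11). Pcdh19 had 362, 467 and 474 reads in si-Rbm22 and 3496, 3674 and 3359 in the si-Control-labelled libraries (log2 fold change −3.05, edgeR adjusted p = 1.22e-12). Pcdh9 had 833, 980 and 1179 reads in si-Rbm22 and none in the si-Control-labelled libraries, at least 969.6-fold higher. Pcdh17 had a ratio of 1380 with a counting interval of 247 to 54400, and the planar polarity genes Celsr1 (ratio 288, interval 123 to 887) and Celsr2 (ratio 142, interval 60.7 to 440.0) lay on the same side. Fat3 and Pcdh20 also had no read in the si-Control-labelled libraries and were at least 124-fold and 32.5-fold higher in si-Rbm22. Pcdh8, with 7 reads in si-Rbm22 and none in the si-Control-labelled libraries, was not tested.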
